A study of Mus musculus with 9 samples.

Results

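The genes described here are 9 genes of the bone morphogenetic protein (BMP) pathway and its Id targets: the ligands Bmp2 and Bmp4, the receptors Bmpr1a and Bmpr2, the inhibitory Smad6, the secreted antagonist Grem1, and Id1, Id2 and Id3. They were taken by gene name from RNA-seq abundance tables that list 54986 gene IDs, and each name matched 1 gene ID. All 9 passed the filter on low values (a TPM of at least 1 in at least 3 libraries, where TPM is the transcript level corrected for length and brought to a common total), as did 15837 genes in all. Groups of 3 libraries each held C57BL/6 primary mouse embryonic fibroblasts with Zscan4f overexpression, the same cells with Zscan4f3A overexpression, and cells whose labels name no overexpression, called control here. Every group, control included, is labelled D4-OSKM-2ndMEFs, where OSKM is the usual short form for the reprogramming factors Oct4, Sox2, Klf4 and Myc. No group without OSKM was analysed, and the control labels name no empty vector, so an effect of Zscan4f and one of overexpression as such cannot be told apart in a comparison with control. The labels do not say how the genes were introduced, what D4 means, which residues differ in Zscan4f3A, or whether the 3 libraries of a group came from separate cultures. The p-values thus measure the spread between these libraries, which may be technical.

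BMP ligands are secreted dimers that bind pairs of type I and type II serine/threonine kinase receptors, which phosphorylate Smad1, Smad5 and Smad9. These enter the nucleus with Smad4 and switch on targets, of which the Id genes are the best known in many cell types. Id proteins lack a DNA-binding region and hold basic helix-loop-helix factors inactive, and the pathway is damped outside the cell by antagonists such as gremlin and inside it by Smad6 and Smad7. In mouse embryonic fibroblasts, BMP signalling is known to favour the mesenchymal-to-epithelial transition early in reprogramming.

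The labels were checked first on Zscan4f, which stood at 570.1, 565 and 558 TPM in the Zscan4f libraries, at 827, 836 and 654 TPM in the Zscan4f3A libraries, and at 0.330, 0 and 0.960 TPM in control libraries. These levels set both overexpression groups apart from control but cannot tell which form a library carried. The aligned sequence, estimated from the ratio of coverage (mean read depth over a gene) to FPKM (fragments per kilobase, corrected for depth), was 7.48 to 8.39 gigabases with Zscan4f, 3.31 to 8.38 with Zscan4f3A and 6.60 to 8.26 in control, the lowest being Zscan4f3A replicate 3. All 13 fibroblast markers were tested, 3 being higher and 7 lower with Zscan4f than in control, and their summed TPM was 16051 to 16245 with Zscan4f, 15997 to 16453 with Zscan4f3A and 16221 to 16319 in control. Within that sum Col1a2 averaged 5050 TPM with Zscan4f and 4260 in control, while Col1a1 averaged 2449 and 2759. A steady sum thus does not show that the single markers were steady. Of 10 epithelial markers 7 were tested and 5 were higher with Zscan4f than in control. Of all genes tested in that comparison 18.5% passed the same test (limma, adjusted p under 0.05), 8.74% higher and 9.71% lower. The summed TPM of the 10 epithelial markers was 132 to 140.1 with Zscan4f, 60.2 to 64.7 with Zscan4f3A and 57.3 to 61.6 in control. Much of that sum was Krt8, at means of 78.5 TPM with Zscan4f, 23.9 with Zscan4f3A and 20.2 in control. Krt19 and Cldn3 were tested and not called. Of 7 endothelial markers only Tek and Flt1 were tested, both higher with Zscan4f; the list summed to 59.0 to 62.8, 41.4 to 43.4 and 39.8 to 42.7 TPM in the Zscan4f, Zscan4f3A and control libraries, with Cldn5 at 0 in every library and Cdh5 at means of 0.00765, 0 and 0.0165 TPM in the same order. Macrophage markers, 3 of 6 tested with 1 higher and 1 lower, summed to 22.5 to 24.9, 15.1 to 17.1 and 15.9 to 18.0 TPM in that order. Chondrocyte and osteoblast markers, 4 of 8 tested with 0 higher and 1 lower, summed to 231 to 258, 226 to 248 and 216 to 237 TPM. Skeletal muscle markers stayed at sums of 1.16 to 2.64 TPM over all 9 libraries, with 1 of 6 tested, 0 called, and both Myod1 and Myf5 at 0 throughout. The part that these cell type markers play in the differences below was not tested, and in bulk RNA fewer cells of a type and less RNA per cell cannot be told apart.

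With Zscan4f, 2 of the 9 genes were called lower than in control and 0 higher. Grem1 and Smad6, a secreted and an intracellular inhibitor of BMP signalling, were the 2 that fell, while the ligands, the receptors and the Id genes did not pass the test on TPM. The test was limma on log2(TPM + 1) with p-values adjusted after Benjamini and Hochberg across the 15837 genes, and a gene counts as called where that value was under 0.05. It called 18.5% of these genes, 8.74% higher and 9.71% lower. The members' 2 of 9 therefore do not stand far from the background, and what follows concerns which genes moved rather than how many. The median log2 fold change of the 9 genes was -0.06, against -0.003 over all genes tested. In 4 of the 9 genes the 3 Zscan4f libraries did not overlap the 3 control libraries, which held for 38.2% of all genes.

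The order of levels, on the TPM scale, was led by the Id genes. Over the 9 libraries Id3 ranged from 254 to 298 TPM, Id1 from 163 to 194 and Id2 from 59.4 to 101. The type I receptor gene Bmpr1a followed at 46.6 to 54.0 TPM and the type II receptor gene Bmpr2 at 36.7 to 45.4. Grem1 ranged from 14.5 to 29.1 TPM, Bmp4 from 16.1 to 20.6 and Smad6 from 10.4 to 16.7. Bmp2 was lowest, at 1.55 to 2.92 TPM. The ranges of Grem1 and Bmp4 overlapped, as did those of Grem1 and Smad6 and of Bmp4 and Smad6, and no other neighbours in this order overlapped. The place of Grem1 depended on the group: its 3 values lay below all 3 of Bmp4 in the Zscan4f libraries, and above all 3 of Bmp4 in the Zscan4f3A and control libraries.

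**Figure D1:**
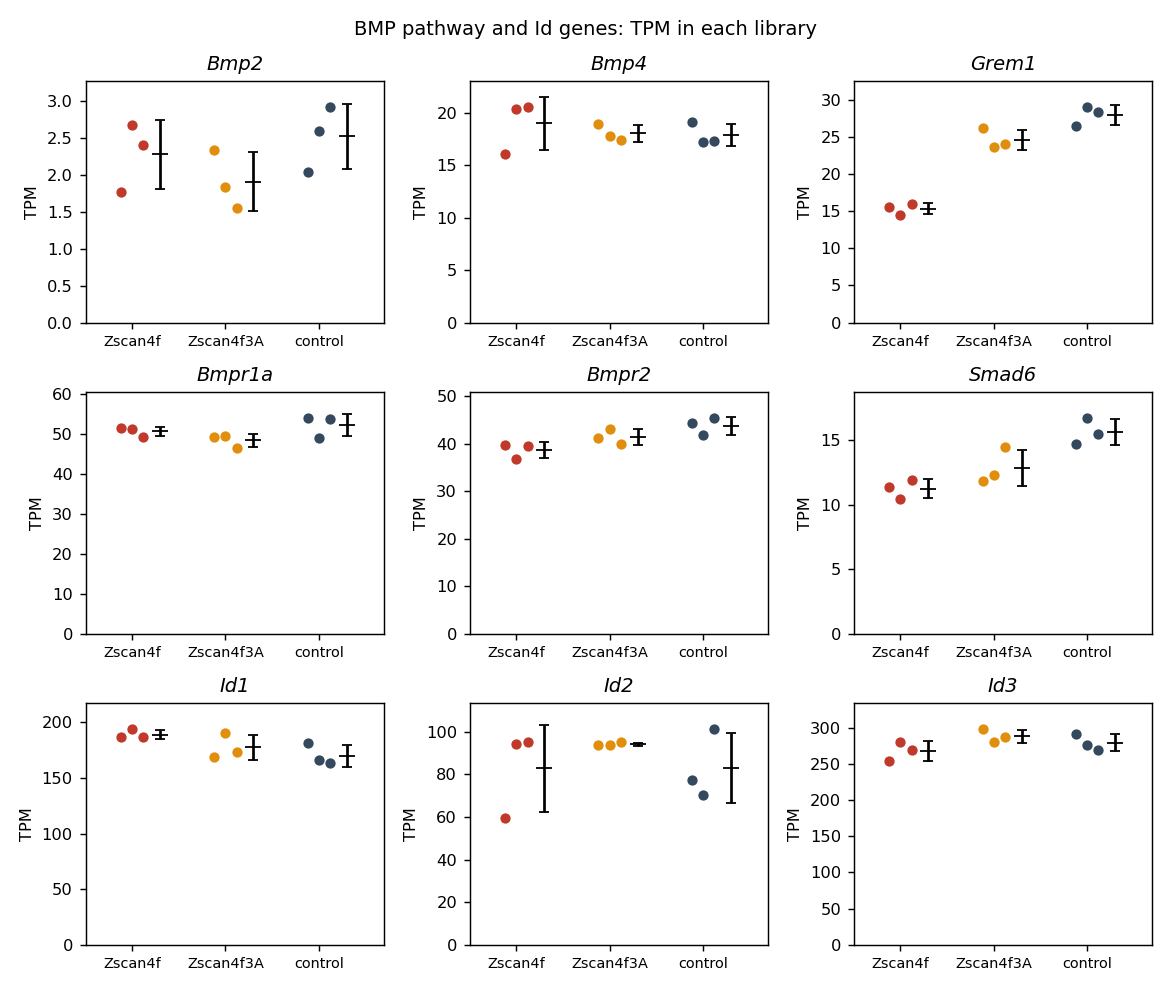
TPM of the 9 genes in each library, 1 panel a gene, with the y axis in TPM from 0; dots are libraries and the bars to their right give mean ± SD (n = 3). Grem1 separates the Zscan4f libraries (14.5 to 16.0 TPM) from the other 6 (23.7 TPM or more), while the Id1, Id3, Bmp4 and Bmpr1a panels stay within narrow ranges and Id2 splits into high and low libraries.

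Grem1 (ENSMUSG00000074934.3, chromosome 2, 113746164 to 113758646, minus strand, GRCm38) encodes gremlin 1, a secreted protein that binds Bmp2 and Bmp4 and keeps them from their receptors. It stood at 15.6, 14.5 and 16.0 TPM with Zscan4f, at 26.2, 23.7 and 24.1 with Zscan4f3A, and at 26.6, 29.1 and 28.5 in control. The Zscan4f libraries were all low, with no overlap with either other group. Grem1 thus averaged 15.4 ± 0.776 TPM with Zscan4f and 28.0 ± 1.32 TPM in control (SD, n = 3 each), so that the Zscan4f mean was 54.8% of the control mean. The log2 fold change was -0.83 (SE 0.06, adjusted p = 7.4e-05). Against Zscan4f3A, which averaged 24.7 ± 1.35 TPM, the log2 fold change was -0.65 (SE 0.06, adjusted p = 4.0e-04), and this comparison uses the same Zscan4f libraries. Zscan4f3A against control gave -0.18 (SE 0.06, 95% confidence interval -0.33 to -0.03), which did not pass after adjustment (adjusted p = 0.50) although the 3 Zscan4f3A libraries lay below the 3 control libraries.

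Smad6 (ENSMUSG00000036867.7, chromosome 9, 63953076 to 64022059, minus strand) encodes an inhibitory Smad that competes with the receptor-activated Smads and is itself known as a BMP target. It stood at 11.4, 10.4 and 11.9 TPM with Zscan4f, at 11.9, 12.3 and 14.5 with Zscan4f3A, and at 14.7, 16.7 and 15.5 in control. The Zscan4f and Zscan4f3A ranges overlapped, and both lay below the control range. Means were 11.3 ± 0.763 TPM with Zscan4f and 15.7 ± 1.01 in control, and limma gave -0.44 on the log2 scale (SE 0.09, adjusted p = 0.010). Zscan4f3A averaged 12.9 ± 1.39 TPM, with a log2 fold change of -0.27 (SE 0.09, 95% confidence interval -0.47 to -0.06) against control that did not pass after adjustment (adjusted p = 0.48). The difference between Zscan4f and Zscan4f3A was -0.18 (SE 0.09, adjusted p = 0.24), so a difference between these groups was shown for Grem1 and was not shown for Smad6. The Zscan4f transcript itself averaged 564 TPM with Zscan4f and 772 with Zscan4f3A, without overlap (adjusted p = 0.20 by limma). An effect of the form and one of its level cannot be told apart in any comparison of these groups.

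The sequences before the starts of Grem1 and Smad6 are shown because these were the members that fell, and that of Bmp4 because it encodes a ligand that gremlin binds. RefSeq promoter entries (GRCm38.p6) matched 7 of the 9 members, and the 250 bases before each start are used, 5′ to 3′ on the gene's strand. Capitals mark GGCGCC, a palindrome known from BMP-responsive elements, and GTCT or its reverse complement AGAC, the core of Smad binding elements, both searched on both strands, and no 2 matches to different motifs overlap in the sequences shown.
Grem1 (chr2:113758649-113758898, minus strand): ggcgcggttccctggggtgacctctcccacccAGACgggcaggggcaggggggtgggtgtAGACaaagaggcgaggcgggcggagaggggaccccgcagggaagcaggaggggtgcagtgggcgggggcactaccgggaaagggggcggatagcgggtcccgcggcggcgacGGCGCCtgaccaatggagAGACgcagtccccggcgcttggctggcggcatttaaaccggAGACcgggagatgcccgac
Smad6 (chr9:64022060-64022309, minus strand): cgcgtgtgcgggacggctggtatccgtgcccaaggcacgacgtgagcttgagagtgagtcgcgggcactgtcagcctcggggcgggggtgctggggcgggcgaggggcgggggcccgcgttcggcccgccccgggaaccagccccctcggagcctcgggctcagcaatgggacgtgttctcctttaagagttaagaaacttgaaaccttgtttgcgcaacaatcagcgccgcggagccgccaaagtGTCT
Bmp4 (chr14:46390670-46390919, minus strand): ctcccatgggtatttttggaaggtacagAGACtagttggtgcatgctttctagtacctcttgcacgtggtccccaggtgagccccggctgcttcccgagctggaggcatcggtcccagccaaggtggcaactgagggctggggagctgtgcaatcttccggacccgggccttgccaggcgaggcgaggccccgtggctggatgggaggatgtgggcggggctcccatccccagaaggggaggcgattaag
The Grem1 stretch held 1 GGCGCC, starting 78 bases before the start, and 4 matches to GTCT. Smad6 had 0 matches to GGCGCC and 1 to GTCT, starting 4 bases before the start, and Bmp4 likewise had 0 and 1. The stretches of the other 4 members with an entry lie within the ranges of these genes in the files, so they are not upstream of every annotated start, and they are not shown. They held 1 GGCGCC and 1 GTCT for Id2, 0 and 2 for Id3, and 1 and 0 each for Bmpr1a and Bmpr2. Among 32851 promoter stretches of the same length, 9.59% held GGCGCC and 82.9% held GTCT, so the second is found in most promoters. The median number of GTCT matches was 2, and 54.9% of these stretches held 2 or more. A match to these letters is a description and does not show a bound site.

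Bmp4 (ENSMUSG00000021835.15, chromosome 14, 46383520 to 46390669) encodes a ligand widely used to drive BMP signalling. It stood at 16.1, 20.4 and 20.6 TPM with Zscan4f, at 19.0, 17.8 and 17.4 with Zscan4f3A and at 19.1, 17.2 and 17.3 in control. The Zscan4f libraries reached both below and above the control range. The ratio of coverage to FPKM of Bmp4, relative to the commonest ratio of each library, also varied (0.784 to 0.909), and was highest in Zscan4f replicate 1, the library lowest in TPM. Its coverage, divided by the sum over all genes and multiplied by 1000000, was 23.1, 25.9 and 25.6 with Zscan4f, 26.5, 24.7 and 24.8 with Zscan4f3A and 25.1, 21.9 and 24.03 in control, and on this measure no Zscan4f library fell below the control range. On TPM the log2 fold change of Zscan4f against control was 0.08 (95% confidence interval -0.14 to 0.30, adjusted p = 0.66). Bmp2 (ENSMUSG00000027358.6, chromosome 2, 133552159 to 133562885), a close relative of Bmp4 among the ligands, stood at 1.76, 2.67 and 2.40 TPM with Zscan4f, at 2.34, 1.83 and 1.55 with Zscan4f3A and at 2.04, 2.59 and 2.92 in control. Its groups overlapped, and at this low level the interval was wide (-0.48 to 0.27 for Zscan4f against control, adjusted p = 0.73).

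Bmpr1a (ENSMUSG00000021796.15, chromosome 14, 34410734 to 34503341) encodes a type I receptor for Bmp2 and Bmp4. It averaged 50.7 ± 1.20 TPM with Zscan4f, 48.5 ± 1.61 with Zscan4f3A and 52.3 ± 2.75 in control, with overlapping groups. The interval of its log2 fold change, Zscan4f against control, was -0.16 to 0.07 (adjusted p = 0.63). Bmpr2 (ENSMUSG00000067336.6, chromosome 1, 59763400 to 59879014) encodes the BMP type II receptor. It stood at 39.8, 36.7 and 39.6 TPM with Zscan4f, at 41.1, 43.2 and 40.0 with Zscan4f3A and at 44.3, 41.7 and 45.4 in control. The Zscan4f libraries lay below all 6 others by a narrow margin. Its log2 fold change against control, -0.17 (SE 0.05), had adjusted p = 0.058, and it passed with adjusted p = 0.049 when only genes of at least 5 TPM were tested.

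Id1 (ENSMUSG00000042745.9, chromosome 2, 152736251 to 152737410), the Id gene most often used to read BMP activity, stood at 186, 194 and 187 TPM with Zscan4f, at 169, 190.4 and 174 with Zscan4f3A and at 181, 166 and 163 in control. All 3 Zscan4f values lay above the 3 control values. The log2 fold change was 0.15 (SE 0.06, 95% confidence interval 0.02 to 0.28), and it did not pass (adjusted p = 0.099). The Zscan4f3A libraries spread over both ranges. Id3 (ENSMUSG00000007872.3, chromosome 4, 136143497 to 136145755) stood at 254, 281 and 269 TPM with Zscan4f, at 298, 279.9 and 287 with Zscan4f3A and at 292, 277 and 269 in control. Its groups overlapped, and the log2 fold change of Zscan4f against control was -0.06 (95% confidence interval -0.17 to 0.05, adjusted p = 0.46). These intervals are narrow beside the -0.83 of Grem1.

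Id2 (ENSMUSG00000020644.9, chromosome 12, 25093799 to 25097140) gave a different picture by measure. Its TPM was 59.4, 94.5 and 95.1 with Zscan4f, 93.7, 93.9 and 95.1 with Zscan4f3A and 77.5, 70.3 and 101 in control. The low values were Zscan4f replicate 1 and control replicates 1 and 2. In the same 3 libraries the ratio of coverage to FPKM, relative to the library's commonest ratio, was 0.764, 0.670 and 0.754, against 0.509 to 0.518 in the other 6. That ratio was steadier for Id1 (0.813 to 0.820) and Id3 (0.688 to 0.696), while Bmp4 varied as given above. StringTie coverage of Id2, divided by the sum over all genes and multiplied by 1000000, was 71.9, 76.4 and 76.7 with Zscan4f, 75.8, 76.4 and 77.9 with Zscan4f3A and 81.9, 83.6 and 82.4 in control. On this measure the control libraries were above all others. On TPM the log2 fold change of Zscan4f against control was -0.02 (SE 0.19, adjusted p = 0.97), and on scaled coverage, a measure chosen after the data were seen, -0.14 (adjusted p = 0.015). The TPM of Id2 therefore does not settle whether it moved, and whether the assignment of reads to its transcripts varied was not tested.

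**Figure D2:**
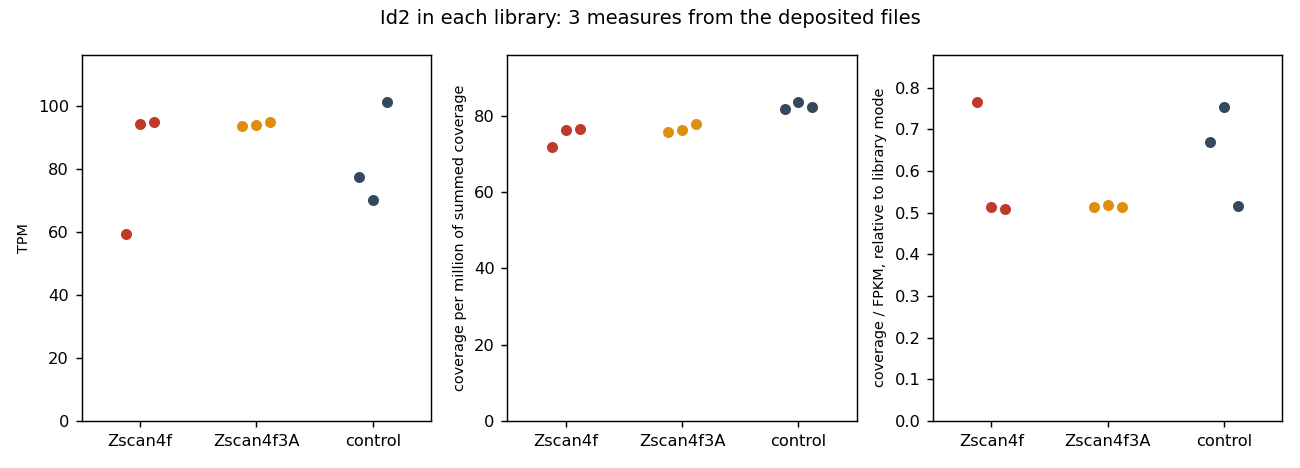
Id2 in the 9 libraries by TPM (left), by scaled coverage (middle) and by the ratio of coverage to FPKM relative to the library's commonest ratio (right), each axis from 0. The 3 libraries low in TPM are those with ratios of 0.670 or more, and the scaled coverage runs from 71.9 to 83.6.

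**Figure D3:**
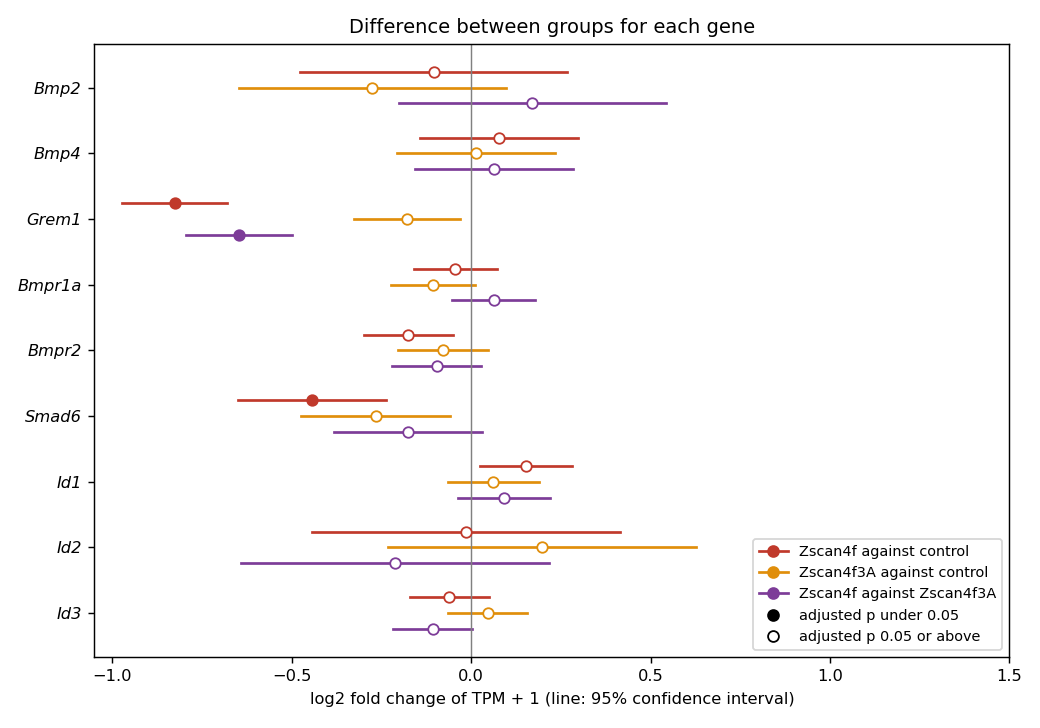
Log2 fold changes of the 9 genes on the log2(TPM + 1) scale in 3 comparisons, with 95% confidence intervals as lines and filled points where the adjusted p was under 0.05. Filled points are Grem1 at -0.83 and -0.65 and Smad6 at -0.44.

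Zscan4f3A against control called 0 of the 9 genes by limma, with 2 of 9 at an unadjusted p under 0.05 (Grem1 and Smad6). Over all genes 0.0316% were called and 8.8% had an unadjusted p under 0.05. The Zscan4f3A and control libraries did not overlap in 2 of the 9 genes, against 15.4% of all genes. The median log2 fold change of the 9 was -0.08, and the 7 besides Grem1 and Smad6 ran from -0.28 for Bmp2 to 0.20 for Id2. Zscan4f against Zscan4f3A called 1 of the 9, Grem1, lower with Zscan4f, where 15.1% of all genes were called, 7.48% higher and 7.64% lower. The other 8 ran from -0.21 for Id2 to 0.17 for Bmp2. The groups did not overlap in 2 of the 9, Grem1 and Bmpr2, against 34.8% of all genes. These comparisons share libraries with each other, so their values are given side by side and not as separate evidence.

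A wider list of 66 BMP pathway genes, the 9 included, was sorted by role. Of these 53 passed the filter. The other 13, among them the antagonist Nog (noggin) and the ligand Bmp7, reached no more than 1.34 TPM anywhere, and Gdf2, Chrdl2 and Cer1 were the 3 listed at 0 throughout. Zscan4f against control called 14 of the 53 (26.4%, beside 18.5% of all genes), 5 higher and 9 lower, with a median log2 fold change of -0.06. Zscan4f3A against control called 0 by limma, with 7 of the 53 at an unadjusted p under 0.05, beside 8.8% of all genes. Zscan4f against Zscan4f3A called 12 (22.6%, beside 15.1% of all genes), 4 higher and 8 lower. The list was chosen with earlier results of these data known. Its shares beside those of all genes are thus a description and not a test of the pathway.

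Secreted antagonists and modulators held 8 of these 14 calls, Grem1 included. With Zscan4f against control 8 of 14 tested were called, 2 higher and 6 lower, with a median log2 fold change of -0.18. Over all genes 18.5% were called, 8.74% higher and 9.71% lower, with a median of -0.003. Sost, which encodes sclerostin, a secreted inhibitor best known from bone, stood at 0.929, 0.856 and 1.02 TPM with Zscan4f, at 2.02, 3.07 and 3.09 with Zscan4f3A and at 3.48, 3.50 and 2.96 in control (log2 fold change of Zscan4f against control -1.15, SE 0.14, adjusted p = 7.8e-04). Sost has its place in this role from the list, and its effect on BMP signalling was not measured. Its level was low in all groups, and the Zscan4f libraries lay below all 6 others. Sost passed the filter through the Zscan4f3A and control libraries, since among the Zscan4f libraries only replicate 3 reached 1 TPM. The Zscan4f mean was 28.2% of the control mean, and the size of the log2 fold change depended on the scale, at -1.72 with a pseudocount of 0.1 and -0.75 on FPKM, with the gene called in both. Fstl1, a secreted glycoprotein related to follistatin that is known to bind BMPs, was the most abundant of the list, at 1145, 1094 and 1128 TPM with Zscan4f, 1643, 1613 and 1591 with Zscan4f3A and 1736, 1709 and 1729 in control (-0.62, SE 0.03, adjusted p = 2.9e-06). Nbl1, which encodes the antagonist DAN, stood at 145, 142 and 143 TPM with Zscan4f, at 184, 187 and 186 with Zscan4f3A and at 193, 214 and 198 in control (-0.49, SE 0.04, adjusted p = 1.0e-04). For both, the Zscan4f libraries were the lowest, and the Zscan4f3A libraries lay between them and control.

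Bmper, an extracellular BMP-binding regulator known to act for or against signalling by context, went the other way. It stood at 52.6, 50.9 and 49.3 TPM with Zscan4f, at 34.9, 32.6 and 31.4 with Zscan4f3A and at 32.7, 32.3 and 32.9 in control, and its difference from control was 0.63 on the log2 scale (SE 0.05, adjusted p = 8.7e-05). The Zscan4f libraries were all high, and the Zscan4f3A and control libraries overlapped. Bmp1, Twsg1 and Chrd were called too and are named after their values were seen, since the naming rule stopped at 4 per role. Bmp1, a protease that cleaves the antagonist chordin, fell to 132 ± 4.75 TPM with Zscan4f, against 162 ± 3.63 in control (adjusted p = 0.0012). Twsg1, a partner of chordin, fell to 56.5 ± 0.440 TPM with Zscan4f, against 68.3 ± 1.06 in control (adjusted p = 0.0011). Chrd, chordin itself, rose to 46.2 ± 0.924 TPM with Zscan4f, against 37.2 ± 3.54 in control (adjusted p = 0.013).

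**Figure D4:**
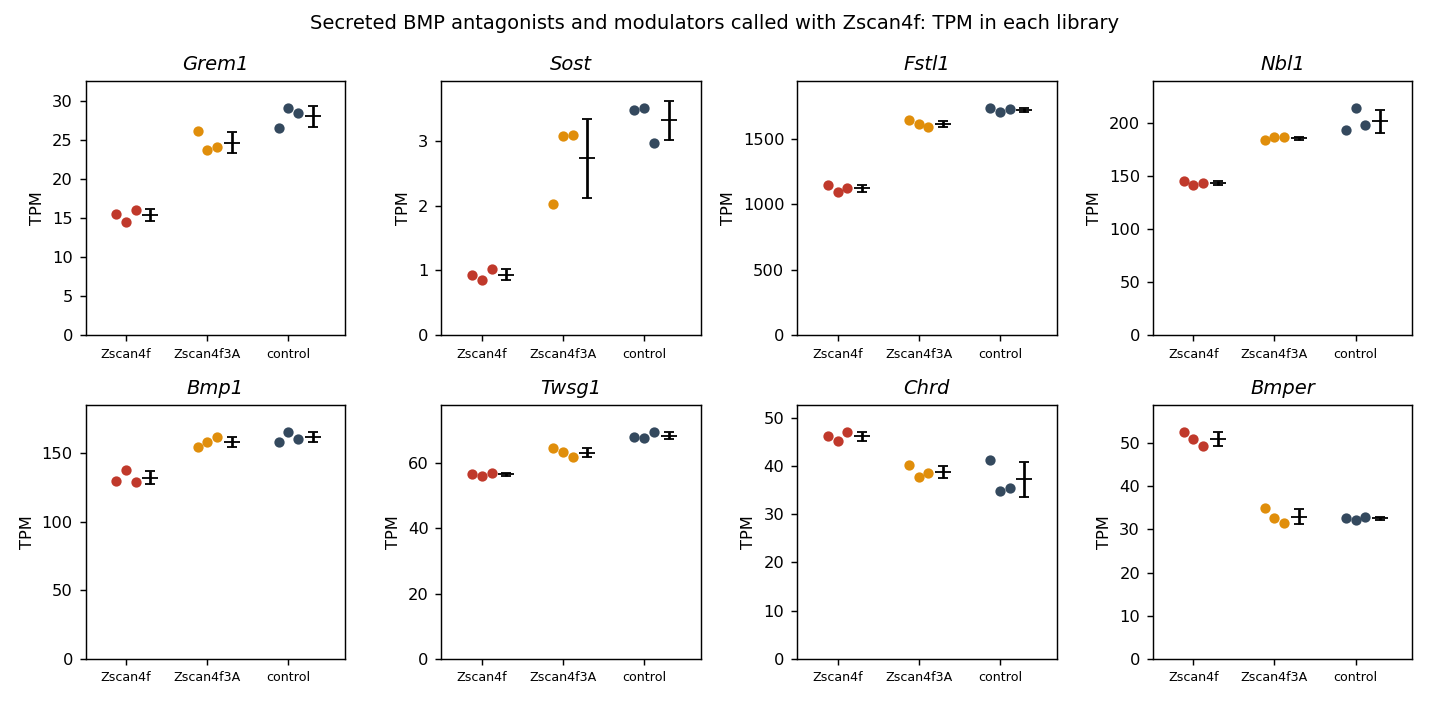
TPM of the 8 secreted antagonists and modulators called in Zscan4f against control, 1 panel a gene, y axes from 0; dots are libraries and bars mean ± SD (n = 3). Bmper and Chrd are higher in the Zscan4f libraries (49.3 to 52.6 and 45.2 to 47.1 TPM), the other 6 lower, with Fstl1 at 1094 to 1145 TPM against 1709 to 1736 in control.

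Against Zscan4f3A, the same role had 8 of 14 called, 2 higher and 6 lower with Zscan4f. Over all genes 15.1% were called in that comparison, 7.48% higher and 7.64% lower. The log2 fold changes were -0.93 for Sost (SE 0.14, adjusted p = 0.0031, and -1.43 with a pseudocount of 0.1 and -0.60 on FPKM), -0.53 for Fstl1 (SE 0.03, adjusted p = 1.1e-05), -0.37 for Nbl1 (SE 0.04, adjusted p = 6.4e-04) and 0.61 for Bmper (SE 0.05, adjusted p = 1.6e-04; all by limma, n = 3 a group). The calls of Chrd (adjusted p = 0.040) and Twsg1 (adjusted p = 0.020) were less firm. Chrd missed the threshold when any 1 of the 6 libraries compared, or control replicate 3, was left out, with adjusted p of 0.0988, 0.083 and 0.115 without Zscan4f replicates 1, 2 and 3, 0.0621, 0.108 and 0.086 without Zscan4f3A replicates 1, 2 and 3, and 0.0509 without that control library. The Twsg1 call was lost without Zscan4f replicates 1, 2 and 3 (adjusted p = 0.0548, 0.0624 and 0.0554) and without Zscan4f3A replicates 1 and 2 (0.0632 and 0.0561).

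Among the ligands 1 of 7 tested (14.3%) was called with Zscan4f against control, beside 18.5% of all genes. Bmp6 rose to 50.1, 51.7 and 49.9 TPM with Zscan4f, against 45.6, 44.4 and 43.2 in control (log2 fold change 0.18, SE 0.04, adjusted p = 0.013). With Zscan4f3A it had 45.7, 45.7 and 44.7 TPM. The ligand transcript at the highest level was thus Bmp6 and not Bmp4. Without Zscan4f replicate 2 its adjusted p was 0.0503. Among receptors and coreceptors 1 of 11 tested was called higher and 1 lower (18.2% called, near the 18.5% of all genes). Rgma, a membrane-anchored BMP coreceptor, fell to 32.0, 29.0 and 30.6 TPM with Zscan4f, against 40.9, 39.1 and 36.2 in control (-0.33, SE 0.07, adjusted p = 0.010). Its Zscan4f3A values were 36.0, 37.4 and 40.9 TPM. Acvr1, a type I receptor, had 131, 114 and 125 TPM with Zscan4f, 102, 93.8 and 112 with Zscan4f3A, and 109, 95.05 and 96.4 in control (0.30, SE 0.08, adjusted p = 0.040). That call was lost without Zscan4f replicates 1 and 3 (adjusted p = 0.126 and 0.109), Zscan4f3A replicate 1 (0.0588) and control replicates 2 and 3 (0.125 and 0.118).

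Of 11 Smads and Smad regulators tested 1 was called higher and 2 lower with Zscan4f against control (27.3% called, beside 18.5% of all genes). Besides Smad6, Smurf1, a ubiquitin ligase that marks BMP Smads and receptors for degradation, fell to 37.3, 35.4 and 36.6 TPM with Zscan4f, against 49.4, 46.3 and 48.8 in control (-0.39, SE 0.04, adjusted p = 4.9e-04). The Zscan4f3A libraries stood between, at 45.0, 43.1 and 44.1 TPM, and Zscan4f against Zscan4f3A gave -0.27 (SE 0.04, adjusted p = 0.0047). Tob1, which is known to dampen BMP Smads in osteoblasts, averaged 139.6 ± 2.39 TPM with Zscan4f, 120.1 ± 3.71 with Zscan4f3A and 126 ± 4.75 in control. Against Zscan4f3A it was higher (0.22, SE 0.04, adjusted p = 0.0080). Against control its log2 fold change was 0.14 (adjusted p = 0.038), and the call was lost without Zscan4f replicates 1, 2 and 3 (adjusted p = 0.0624, 0.111 and 0.11), Zscan4f3A replicate 1 (0.0566) and control replicates 1 and 3 (0.111 and 0.119).

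The genes listed under the role of targets were the Id genes and others, but not Smad6, which was listed with the Smads although it is also known as a target. Of these 0 of 10 tested were called by limma with Zscan4f against control, beside 18.5% of all genes. An unadjusted p under 0.05 was found for 3 of the 10, and for 31.1% of all genes. The count called against Zscan4f3A was also 0 of 10, beside 15.1% of all genes. In that comparison 2 had an unadjusted p under 0.05, beside 29.5% of all genes. With Zscan4f against control their log2 fold changes ran from -0.55 for Dlx5, singled out after its values were seen, to 0.15 for Id1, with a median of -0.05. That these genes missed the threshold does not show that they did not change: the interval of Dlx5 was -1.01 to -0.09 (adjusted p = 0.098). The target and modulator counts were not tested against each other.

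**Figure D5:**
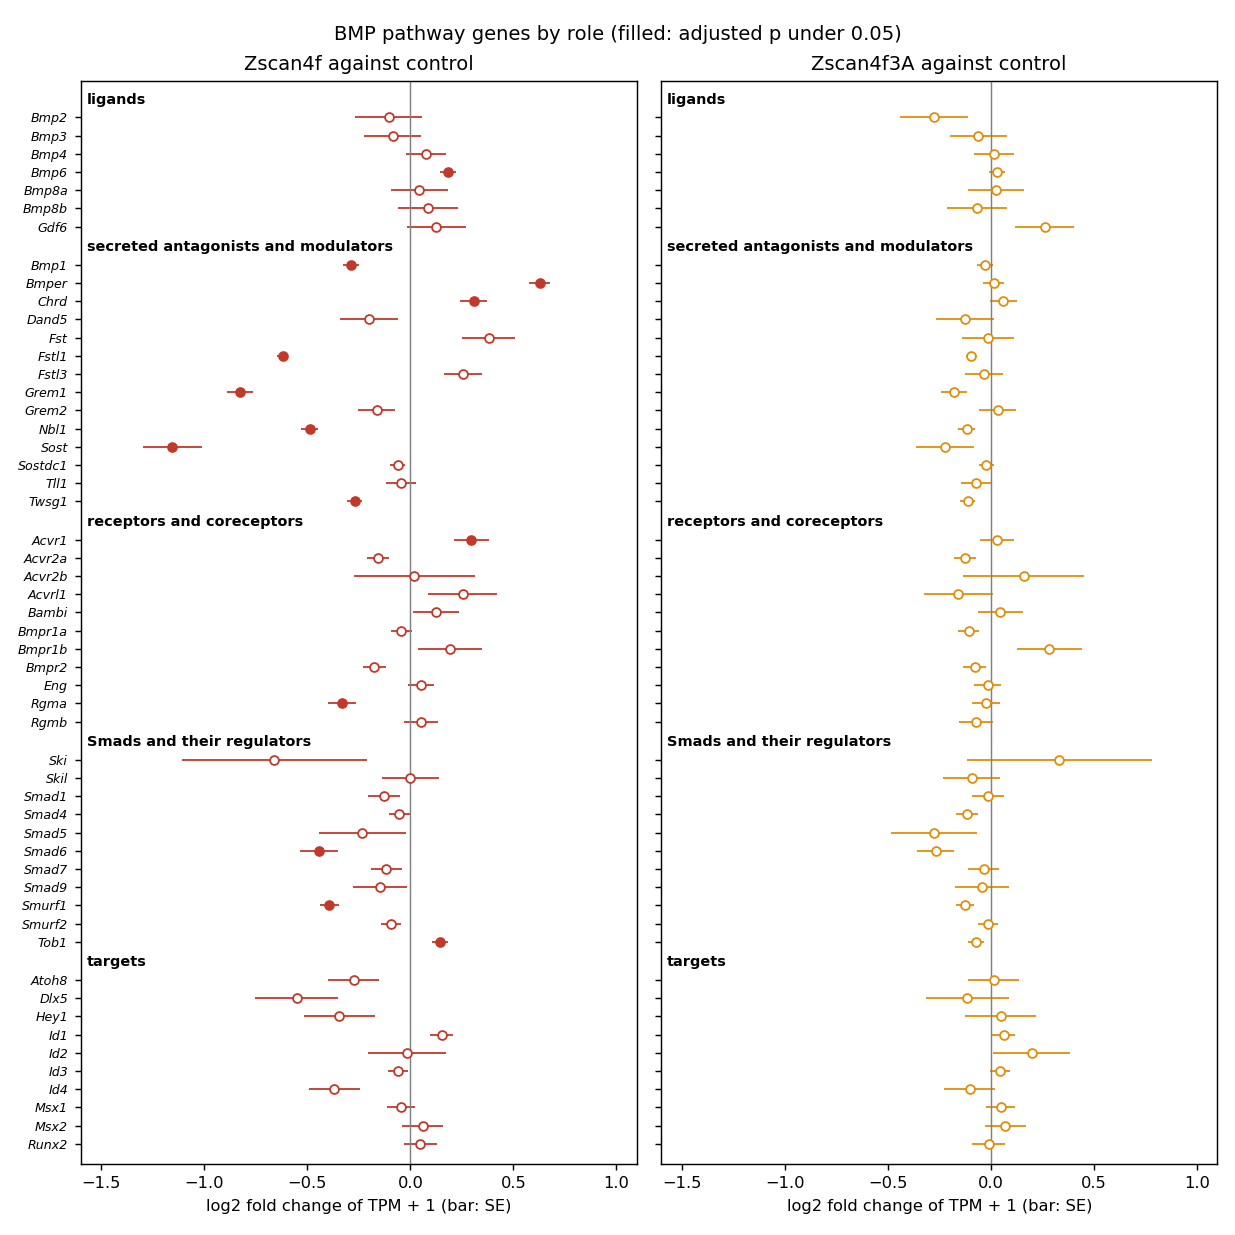
Log2 fold changes on the log2(TPM + 1) scale of the 53 tested BMP pathway genes by role, with Zscan4f against control on the left and Zscan4f3A against control on the right; bars are SE and filled points have an adjusted p under 0.05. Filled points are 14 on the left, 8 of them secreted antagonists and modulators, and 0 on the right; both panels use the same control libraries.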

How the data were processed

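Total RNA of 9 libraries was sequenced after TruSeq preparation, per the labels' protocols. Reads were aligned with HISAT2 2.1.0 and abundance was estimated with StringTie, per the submitters' processing notes; for the StringTie version, genome build and annotation the sources used here give no entry. The deposited TPM values, made by the authors, sum to 1000000 in each library. The deposited FPKM values and the deposited coverage values (mean depth over a gene, not corrected for depth) were used in alternatives. The files hold no counts, so the depth behind a single value is unknown and precision is given as the SD of 3 libraries. All 9 members had the same position in GENCODE M21 (GRCm38), as did 99.987% of the 52566 gene IDs found there. The 15 gene IDs with repeated entries were summed.

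The 15837 genes that reached a TPM of 1 in 3 or more libraries were fitted as log2(TPM + 1) with limma 3.58.1 in R 4.3.3 (3 group means, trended empirical Bayes, two-sided). Fold changes are on that scale, which understates the change of low genes. Alternatives were FPKM in place of TPM, a pseudocount of 0.1, a TPM minimum of 5 or none, scaling by median of ratios or by quantiles, fits of 2 groups, no trend, a robust prior, a replicate block and leaving out each library; scaled coverage was chosen after the data were seen. The code was tested on simulated data. Named genes were the 9 members, up to 4 called genes per role of the pathway list, Zscan4f, and the 2 genes nearest in profile to each member called in Zscan4f against control. The members and lists were chosen with earlier results of these data known. Figures were drawn with matplotlib 3.10.9, and tables read with pandas 2.3.3 under Python 3.11.15.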

Additional observations from a re-analysis of the deposited data

How the results depend on the processing

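Grem1 and Smad6 kept their direction and their call in Zscan4f against control under all 20 alternatives, with log2 fold changes of -0.86 to -0.76 and -0.48 to -0.39. Grem1 also did so against Zscan4f3A (-0.68 to -0.60). Over the 27 pairs of a member and a comparison, 534 of 537 alternatives kept the side of the threshold, 0 lost a call and 3 gained one, while 9 changed sign with neither value called. The gains were in Zscan4f against control: Bmpr2 at TPM of at least 5 (adjusted p = 0.0486), and Bmpr2 (0.0349) and Id2 (0.0149) on scaled coverage, which brought the members called to 4. For Zscan4f3A against control, all genes called numbered 5, and 3 with no filter and 1 with the replicate block; leaving out 1 library gave 1 to 16. Leaving out 1 library gave 2126 to 3285 and 1574 to 2168 genes called for Zscan4f against control and against Zscan4f3A, 12 to 14 and 8 to 12 of the pathway list, and 2 and 1 of the members in each case, with 0 throughout for Zscan4f3A against control. The labels do not pair same-numbered libraries, whose deviations from group means correlated at -0.08 to 0.05, and 5 of 9 libraries correlated best with their own number. The block left the members called at 2, 0 and 1, and the pathway list at 14, 0 and 11. It ended the calls of Bmp6 (adjusted p = 0.0672) and Twsg1 (0.0548) against Zscan4f3A and made one of Acvr1 (0.0415). In Zscan4f against control, Acvr1 was not called with no filter, no trend or scaled coverage (adjusted p = 0.0976, 0.0629 and 0.095), Tob1 with no filter, quantile normalization or no trend (0.0561, 0.0597 and 0.09) and Bmp6 on scaled coverage (0.124). Against Zscan4f3A, Bmp6 was called at adjusted p = 0.035 and lost without any 1 of the 6 libraries compared or control replicate 2 (0.0533 to 0.107), in the fit of 2 groups (0.0666), with no trend (0.059) and on scaled coverage (0.194). Chrd was lost there with no filter (0.0766) and no trend (0.0576), Twsg1 in the fit of 2 groups (0.0536), and Rgma (called at 0.018) without Zscan4f replicates 2 and 3 (0.0642 and 0.0554). The causes were not tested. No scaling moved the median of all genes by 0.1 or more. Depth limits low genes such as Bmp2 and Sost, and Zscan4f3A replicate 3 was the shallowest.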

Other observations

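Profiles over the 9 libraries nearest to that of Grem1, by the root mean square difference of mean-centred log2(TPM + 1) among 10627 genes, were those of Nid1 (0.0511), which encodes the basement membrane protein nidogen 1, and Dapk1 (0.0547), a kinase tied to cell death. Nid1 averaged 197 ± 7.01 TPM with Zscan4f, 318 ± 4.69 with Zscan4f3A and 352 ± 2.41 in control (SD, n = 3 each). Dapk1 averaged 33.3 ± 2.02, 52.5 ± 5.31 and 56.3 ± 1.38 TPM in the Zscan4f, Zscan4f3A and control libraries. The profiles nearest to Smad6 were those of Fam217b (0.0716) and Bbs2 (0.0730), the second a part of the BBSome of primary cilia. Bbs2 averaged 13.3 ± 0.893 TPM with Zscan4f, 15.7 ± 0.836 with Zscan4f3A and 17.3 ± 1.40 in control.

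Ski, a corepressor that binds Smads and is one of the pathway list, split within groups in a way that no label gives. It stood at 34.9, 33.8 and 93.2 TPM with Zscan4f, at 97.9, 97.2 and 94.7 with Zscan4f3A and at 108.9, 100.6 and 40.6 in control. The split was also present in its scaled coverage, at 53.9, 51.7 and 144 with Zscan4f and 166, 158 and 62.4 in control, and the libraries low in Ski were not the set low in the TPM of Id2. Ski was chosen for mention after its values were seen, and its difference between Zscan4f and control had adjusted p = 0.38 by limma.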
